A study of Mus musculus with 4 samples.

Results

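The class III phosphatidylinositol 3-kinase (PI3-kinase) complex and its regulators were examined as 8 genes chosen by name: the 3 core subunits Pik3c3, Pik3r4 and Becn1, and the 5 regulators Atg14, Uvrag, Rubcn, Nrbf2 and Ambra1. They are 8 of 20946 protein-coding reference genes with an Ensembl identifier. N6-methyladenosine (m6A), a methyl mark on RNA, had been mapped in MIN6 cells, a mouse insulinoma line that stands in for beta cells of the pancreas and whose strain is labelled C57BL/6. The arms were MIN6 cells transfected with a GR vector and MIN6 cells transfected with a control vector. Both received 10 µg of plasmid in each 10 cm dish and were harvested after 24 hours. The labels write GR alone; it is taken to be the glucocorticoid receptor. They do not describe the vector's promoter or the share of cells transfected. Each arm had 1 library from immunoprecipitation with an anti-m6A antibody and 1 input library, 4 in all. With no replicate, no difference could be tested.

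What was analysed are tables of the comparison between the arms, without values for single libraries. Depth is therefore unknown, and no gene's RNA level accompanies its m6A fold, so fewer marked transcripts and fewer transcripts cannot be told apart. The cell type could be looked up only in the list of genes related to differential peaks, where 7 of 10 beta-cell marker genes, 1 of 3 markers of other islet endocrine cells and 0 of 4 exocrine or duct markers occurred. That list holds 26.4% of all protein-coding genes, and sets of 3 and 4 markers are too small to set against that share. The beta-cell markers Ins2, Iapp and Neurod1 were absent, and Gcg was the listed marker of other islet cells. Being on that list is not a level of expression.

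The complex makes phosphatidylinositol 3-phosphate (PI3P), a lipid that marks the membranes from which autophagosomes grow and the membranes of endosomes. Pik3c3 encodes the lipid kinase VPS34, Pik3r4 the scaffold VPS15, and Becn1 the protein Beclin 1, which links this pair to further partners. ATG14 directs the complex to autophagosome formation and UVRAG directs a second form of it to endosomes and to later steps of autophagy. Rubicon, the product of Rubcn, restrains the UVRAG form, NRBF2 binds the ATG14 form, and AMBRA1 binds Beclin 1. In beta cells autophagy is known for clearing damaged organelles and surplus insulin granules.

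Promoter sequences from RefSeq (GRCm38.p6, 250 bases before to 50 after a gene start) were at hand for 6 of the 8 genes, 7 promoters in all with 2 for Rubcn, and not for Pik3c3 and Becn1. They are shown because GR, as read here, is a transcription factor. The deposited peaks lie on RNA and do not bear on promoters. The hexamer AGAACA, or TGTTCT on the other strand, is a part of the receptor's binding site and not the whole site. It was in 0 of the 7 promoters and in 19.0% of 32851 promoters of the same length. A set of 7 promoters is too small to set against that share. The E-box CACGTG, which reads the same on both strands and is bound among others by TFEB and TFE3, was looked for after the letters had been seen. It was in 3 of the 7, those of Nrbf2, Atg14 and the inner start of Rubcn, and in 7.15% of all promoters. The windows of 30 bases around it are given 5' to 3' on the strand of the gene, with the E-box in capitals, for Nrbf2 at chr10:67285472-67285501, Atg14 at chr14:47568418-47568447 and Rubcn at chr16:32868437-32868466, each on the minus strand.
Nrbf2: gacccggctcatCACGTGacagccgccgcc
Atg14: aaaacaaaatccCACGTGactggccctgag
Rubcn: cgcctagcacatCACGTGtacccaggttag
Pik3r4 and Uvrag, the genes with both a promoter in the table and deposited folds described next, had neither motif there. A match is a description of letters and not a bound site.

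Folds are GR over control, by the name of the deposited table, so a negative log2 value means a lower m6A peak with GR. Lower m6A peaks were deposited for 3 of the 8 genes, namely Pik3c3, Pik3r4 and Uvrag. Folds were deposited for 22 of the 20946 protein-coding genes, under the name autophagy-related. How those genes and peaks were chosen is not given in the sources used here. A gene without a fold can therefore not be said to lack a lower peak. Becn1, Rubcn, Nrbf2 and Ambra1 were on the list of genes related to differential peaks without any fold or direction. Atg14 was in neither file. All 3 core subunits and 3 of the 5 regulators were on the list, which holds 26.4% of all protein-coding genes. The genes thus fall into 2 with a fold that were also listed (Pik3c3 and Pik3r4), 1 with a fold that was not listed (Uvrag), 4 listed without a fold, and 1 with no entry. Of all 22 genes with a fold, 9 were on the list, so a gene with a fold and no line, as Uvrag is, was the more common case.

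**Figure D1:**
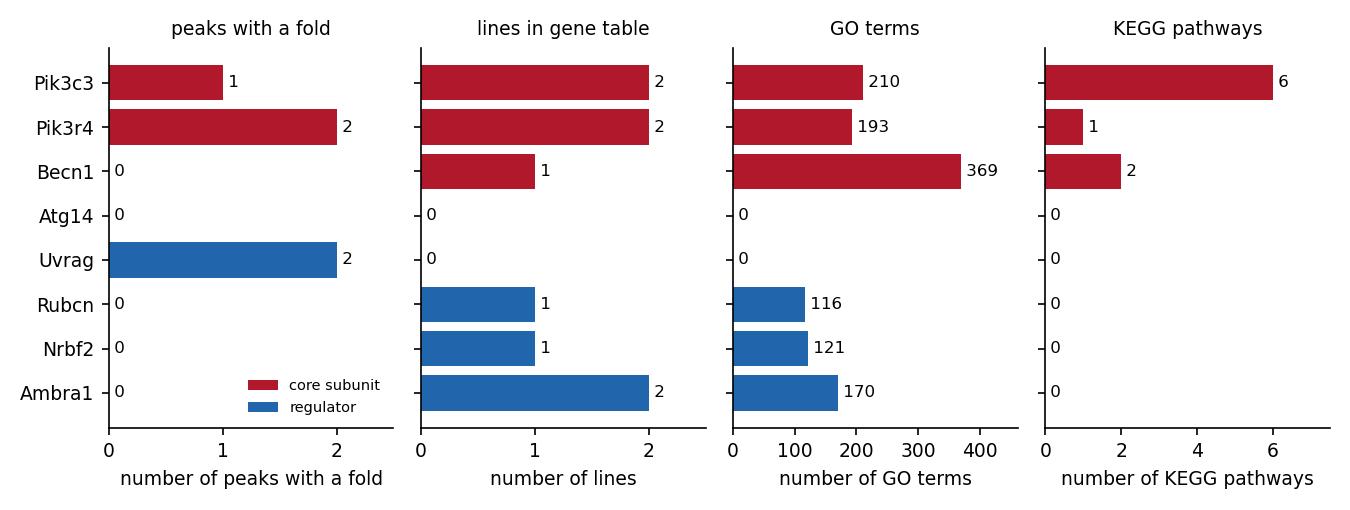
Number of entries of each gene (rows, core subunits in red above regulators in blue) in each of the 4 deposited files: peaks with a fold change, lines in the gene table, Gene Ontology terms and KEGG pathways. Pik3r4 and Uvrag have 2 peaks each, Atg14 has 0 entries in every file, and Becn1 has the most Gene Ontology terms, 369.

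Pik3r4, the VPS15 scaffold (ENSMUSG00000032571, chromosome 9, 105642995 to 105687655), had 2 peaks with a lower signal in cells given GR. The table of peaks has no chromosome column, and chromosomes were added from the RefSeq position of each gene. The peak in exon 4 (chromosome 9, 105650425 to 105650867, mm10) had a log2 fold change of -2.03, GR against control, in the authors' deposited table, which is 4.08-fold lower. The peak in exon 2 (chromosome 9, 105644261 to 105644932) had a log2 fold change of -1.31 in the authors' deposited table, or 2.48-fold lower. Both lay near the 5' end of the gene: their centres were at 3.59% (exon 2) and 17.1% (exon 4) of its length, introns included. Of the 31 peaks of the autophagy table, 6 carried the label of a numbered exon at their centre, and these are 2 of them. Peaks centred in a 5' untranslated region have a label of their own and are not among the 6.

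Pik3c3, the VPS34 catalytic subunit (ENSMUSG00000033628, chromosome 18, 30265615 to 30348126), had 1 peak, in the 3' untranslated region (UTR). It covered bases 30347914 to 30348102 and lay 24 bases inside the higher bound of the gene. The reference table gives no strand for Pik3c3; its 5' to 3' direction was taken from the deposited 3' UTR label of this peak. Its log2 fold change was -1.95 in the authors' deposited table, which is 3.86-fold lower with GR. With a width of 189 bases it was the narrowest of the 5 peaks of the complex, whose widest was the Pik3r4 exon 2 peak at 672 bases. The values for Pik3c3 and for Pik3r4 exon 4 were next to each other in the order of all peaks, at ranks 6 and 5 from the lowest.

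Uvrag (ENSMUSG00000035354, chromosome 7, 98886742 to 99141167, minus strand) had 2 peaks at its 3' end, 264 bases apart. The peak centred in the 3' UTR (chromosome 7, 98887622 to 98887913) had a log2 fold change of -1.64 in the authors' deposited table, or 3.12-fold lower with GR. The peak in the last exon (chromosome 7, 98888178 to 98888525) had a log2 fold change of -1.20 in the authors' deposited table, or 2.29-fold lower. The first lies nearer the 3' end of the transcript, 880 bases from the end of the gene. The pair differed by 0.44 on the log2 scale, and the Pik3r4 pair by 0.72. In the 8 genes with several peaks the range within a gene ran from 0.17 (Atg12) to 2.26 (Rb1cc1), with a median of 0.60.

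**Figure D2:**
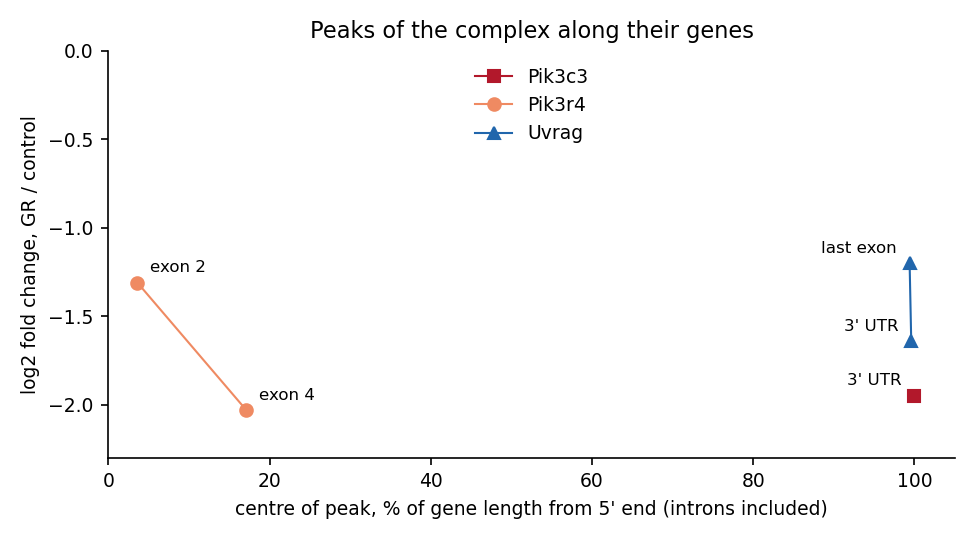
Deposited log2 fold change of each peak (vertical axis, GR over control) against the position of its centre along the gene in percent of gene length from the 5' end (horizontal axis), for Pik3c3, Pik3r4 and Uvrag. The Pik3r4 peaks lie at 3.59% and 17.1% of the gene, and the Pik3c3 and Uvrag peaks at 99.4% or beyond. All 5 points are at -1.20 or lower.

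All 5 peaks were lower with GR. So were all 31 peaks of the table (100%), and 26 of the 31 (83.9%) lay at -1 or lower, against 5 of 5 here, so neither count sets the complex apart. The 5 peaks ran from -2.03 to -1.20 with a median of -1.64 in the authors' deposited table, and the 26 peaks of the other 19 genes ran from -3.60 to -0.55 with a median of -1.46. Of the 5 peaks, 3 were below the median of all peaks (-1.47) and 2 above it. The complex therefore lay inside the range of the other autophagy genes on both sides. Beside it, the 8 peaks of the ULK kinase initiation genes (Ulk1, Ulk3, Atg13, Atg101 and Rb1cc1) had a median of -1.54 and the 7 peaks of the LC3, GABARAP and ATG4 genes a median of -1.48 in the authors' deposited table.

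Core subunits and regulators could be compared only through 3 peaks of Pik3r4 and Pik3c3 and 2 peaks of Uvrag. The core peaks had a median of -1.95 (3.86-fold lower) and the Uvrag peaks a median of -1.42 (2.68-fold lower) in the authors' deposited table. The values overlapped: the Pik3r4 exon 2 peak at -1.31 was between the Uvrag peaks at -1.64 and -1.20. The peaks also share genes, and the regulators are represented by 1 gene, so no test was made. No other annotated RefSeq gene overlapped any of the 5 peaks, and the same held for all 31 peaks of the autophagy table.

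**Figure D3:**
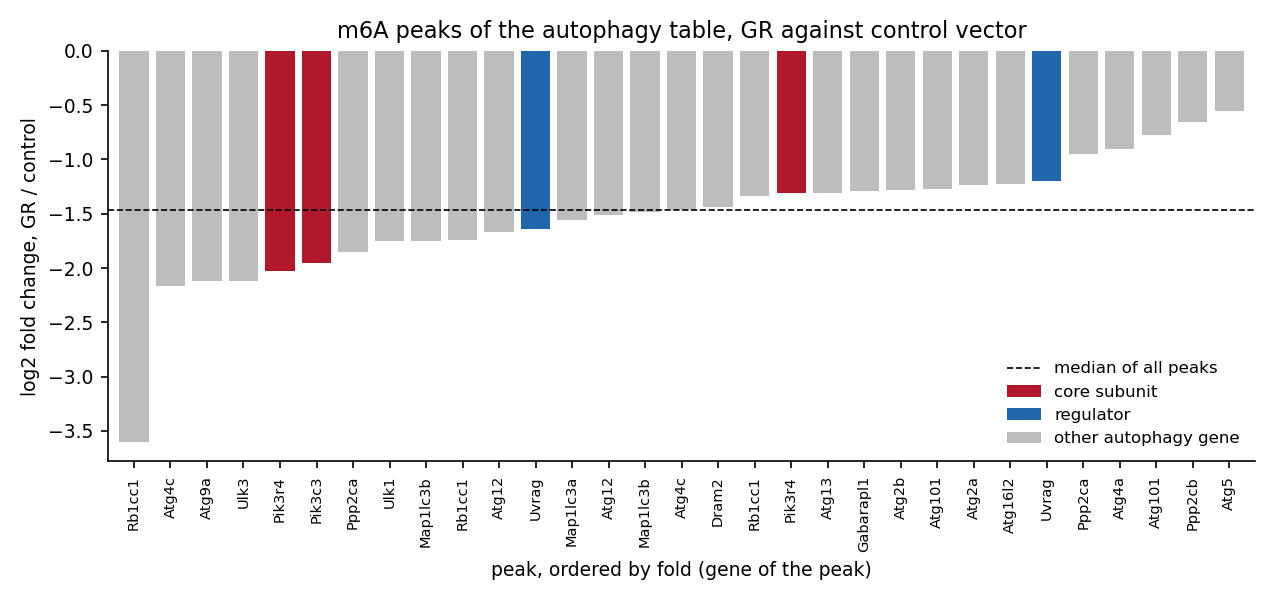
Deposited log2 fold change (GR over control) of each of the 31 peaks of the autophagy table, ordered from the lowest, with the gene of each peak on the horizontal axis. Core subunits are red, Uvrag is blue, other autophagy genes are grey, and the dashed line is the median of all peaks, -1.47. The peaks of the complex are at ranks 5, 6, 12, 19 and 26.

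In the list of genes related to differential peaks, which gives a gene on each line but no position, size or direction, 6 of the 8 genes occurred (75.0%, exact Clopper-Pearson 95% interval 34.9% to 96.8%, covering counting error only). Of all protein-coding genes, 26.4% were listed. That figure counts every such gene, whether or not MIN6 cells express it, because no RNA levels were at hand. Whether expression bears on the 75.0% was not tested. The 8 genes were chosen with this list already known, and the interval treats them as independent, so the share is a description. Pik3c3, Pik3r4 and Ambra1 had 2 lines each, and Becn1, Rubcn and Nrbf2 had 1 line each. Of the 9225 identifiers in the list, 5127 had 1 line and 2374 had 2, so these numbers are common ones. The numbers of lines and of peaks were not the same: Pik3r4 had 2 lines and 2 peaks, Pik3c3 2 lines and 1 peak, and Uvrag 0 lines and 2 peaks. Of the 22 genes with a fold, 9 had a line, so absence from the list is not absence of a differential peak.

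Listed and unlisted genes overlapped in length. Uvrag, the longest at 254 kb, was absent and Becn1, the shortest at 14.0 kb, was present. Ambra1 (189 kb) was present, and Atg14 (27.5 kb) was absent although the shorter Nrbf2 (18.7 kb) was listed. Among protein-coding genes between the shortest and the longest of the 8, 26.6% were listed, close to the share of all. That band is wide, from percentile 43.3 to percentile 96.7 of length, and whether listing depends on length was not tested.

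All 3 core subunits (100%, interval 29.2% to 100%) and 3 of 5 regulators (60%, interval 14.7% to 94.7%) were listed. Uvrag counts as unlisted here although it had 2 peaks with a fold, so an unlisted gene can have a differential peak. The order turns round with the definition of the core. When Atg14 and Uvrag, each a stable subunit of its own form of the complex, were counted as core, 3 of 5 core subunits (60%) and 3 of 3 remaining regulators (100%) were listed. The listed regulators included proteins of opposite known effect: Rubcn, a brake on the complex, and Nrbf2 and Ambra1, which are known mainly for promoting autophagy.

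Some of the listed genes share bases with neighbours, and the sources used here do not state whether strand was used in counting. Becn1 overlapped Cntd1 by 444 bases and Cntd1 had 2 lines of its own, Rubcn overlapped Fyttd1 by 149 bases with 1 line for Fyttd1, and Pik3r4 shared 87 bases with the pseudogene Gm22720, which had 1 line. Whether a line of Becn1, Rubcn or Pik3r4 came from such shared bases was not tested, since lines carry no position.

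The wider PI3P pathway was taken as 56 genes in 7 groups, of which 17 were listed (30.4%, interval 18.8% to 44.1%), near the 26.4% of all protein-coding genes. Among 14 genes whose products bind or modify Beclin 1, 6 were listed: the BCL2 family inhibitors Bcl2 (3 lines) and Bcl2l1 (1 line), the membrane-curving protein gene Sh3glb1 (1 line), the deubiquitinase gene Usp10 (4 lines), Tab2 (4 lines) and the ubiquitin ligase gene Trim21 (1 line). Ulk1, whose kinase phosphorylates subunits of the complex, was not listed but had a 3' UTR peak at -1.75 in the authors' deposited table. It was the single gene of the 56 with a deposited fold.

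Of 8 PI3P phosphatase genes Mtmr4 was listed, with 1 line. Of 14 genes for PI3P-binding effectors 3 were listed, Wdr45b with 3 lines, Zfyve1, which encodes the autophagosome-precursor marker DFCP1, with 2, and Plekhf2 with 1. Pikfyve, the kinase that adds a further phosphate to PI3P, was listed of 3 genes for that step, with 1 line. Among 5 Rab partners and effectors, Rab7 and Plekhm1 had 1 line each.

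Pik3c2a was listed of 3 class II genes, and of 9 class I genes 3 were listed: the catalytic subunit gene Pik3cd (1 line) and the regulatory subunit genes Pik3r1 (1 line) and Pik3r3 (3 lines). Without class I and class II, 29.5% of the pathway genes were listed. For comparison, 2 of 6 ULK kinase initiation genes (33.3%) and 5 of 9 LC3, GABARAP and ATG4 genes (55.6%) were listed. Of the 6 ULK genes, 5 had a deposited fold. The interval of each of these sets overlaps that of the 8 genes.

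**Figure D4:**
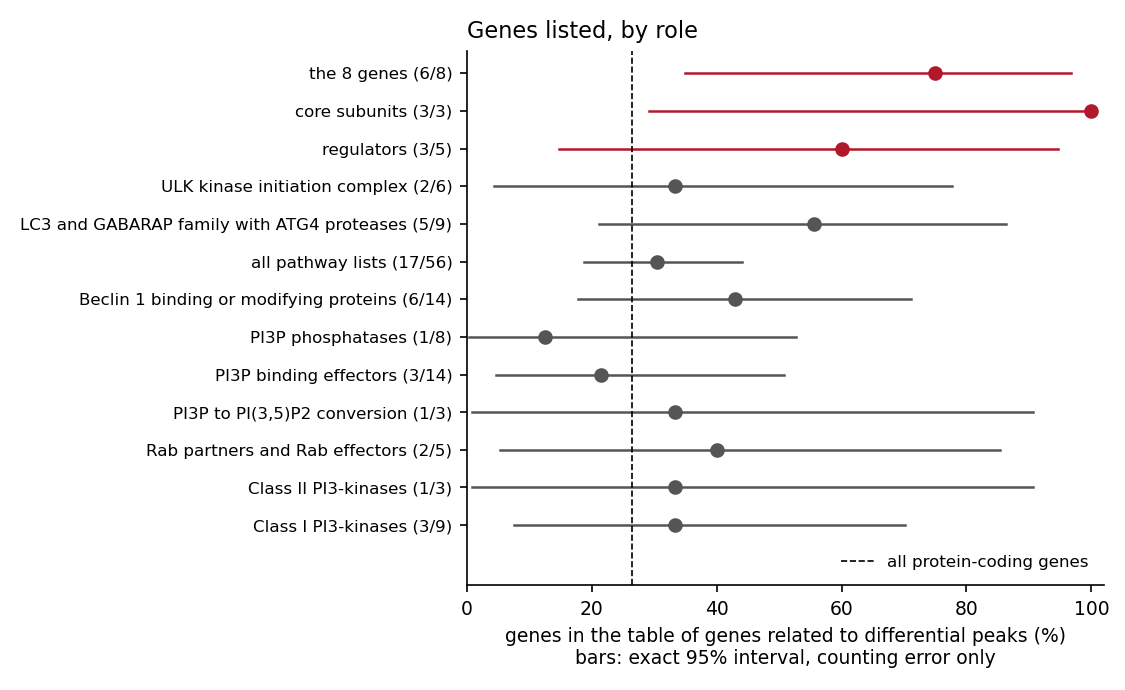
Percent of genes in the table of genes related to differential peaks (horizontal axis) for the 8 genes, core subunits, regulators, neighbouring autophagy sets and groups of the PI3P pathway, with the number listed and the number of genes in brackets. Points are shares, bars exact 95% intervals, and the dashed line is the 26.4% of all protein-coding genes, expressed in MIN6 cells or not. Every interval but that of the 8 genes and that of the core subunits includes the line. The genes were chosen with the list known and are not independent, so this is a description and no test. With Atg14 and Uvrag counted as core, 3 of 5 core subunits were listed.

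At least 1 of the genes was named in 613 of the 16568 Gene Ontology (GO) terms. Every one of those terms carries p = 1 in the authors' deposited table and none could be ranked by it. Becn1 was in 369 terms, Pik3c3 in 210, Pik3r4 in 193, Ambra1 in 170, Nrbf2 in 121, Rubcn in 116, and Atg14 and Uvrag in 0. These numbers count annotations, in which broad and narrow terms repeat one another, and not changes. The 6 genes named in terms are the 6 on the list of genes related to differential peaks. The 0 of Atg14 and Uvrag therefore repeats that list and is not a second result. Of the 613 terms, 322 held core subunits without a regulator, 96 regulators without a core subunit and 195 both. Becn1 was the single gene of the 8 in 185 terms. Pik3c3 and Pik3r4 shared 125 terms, 59.5% of those of Pik3c3 and 64.8% of those of Pik3r4.

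The term for the class III PI3-kinase complex had 4 of its 8 background genes with a peak in the authors' deposited table, and those 4 were Pik3c3, Pik3r4, Becn1 and Nrbf2. The terms for its type I and type II forms each had 3 of 4 background genes, in both cases the 3 core subunits. The parent term for all PI3-kinase complexes had 12 of 28 genes (42.9%, interval 24.5% to 62.8%). Regulation of PI3-kinase activity had 18 of 55 genes (32.7%) and held Pik3r4, Rubcn and Ambra1, while negative regulation of that activity had 1 of 4, namely Rubcn.

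All 6 listed genes were together in 27 terms, and the 10 of these with the fewest background genes are given. Autophagy, and process utilizing autophagic mechanism, had 132 of 367 background genes (36.0%), vacuole 164 of 519 (31.6%), cytoplasmic vesicle 518 of 1753 (29.5%), intracellular vesicle 518 of 1757 (29.5%) and vesicle 557 of 1876 (29.7%). Cellular catabolic process had 638 of 1933 (33.0%), catabolic process 713 of 2183 (32.7%), cytoplasmic part 2669 of 8345 (32.0%) and protein binding 2565 of 8725 (29.4%). The table's own totals put 48.3% of its background genes with a peak, while the distinct identifiers in its gene lists make up 26.0% of that background. The shares of these 10 terms are below 48.3% and above 26.0%. In all 16568 terms the deposited count equals the length of the gene list. The counts are therefore drawn from the 5409 distinct identifiers, while the deposited total is 10022. The broad terms cell (27.4%) and cellular process (26.6%) also lie near 26.0%. The like-for-like background is thus 26.0%, and the 10 terms are above it. They were chosen for holding all 6 listed genes, so this is a description and no test. Among the other terms of the 27, regulation of cellular process (25.7%), biological regulation (25.6%) and regulation of biological process (25.4%) were below 26.0% and 48.3% alike.

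Narrower terms were picked after their counts had been seen, as those with at most 200 background genes that held 3 or more of the 8. There were 20, with shares between 25.6% and 75.0% and a median of 39.8%. The core subunits, and no regulator, were in the terms cellular response to glucose starvation (20 of 38 genes, 52.6%), cytokinesis (64 of 150, 42.7%) and regulation of cytokinesis (34 of 80, 42.5%). Core subunits and Ambra1 were in cellular response to starvation (53 of 140, 37.9%), and all but Rubcn of the 6 were in autophagosome (32 of 89, 36.0%). The exact interval lay wholly above 26.0% for 11 of the 20 terms and wholly above 48.3% for 0. A term could enter only by holding at least 3 genes already listed, which raises its share, and the terms share genes. These intervals are therefore a description and no test of the terms. Among terms with a single gene of the 8, autophagosome maturation (12 of 31) and its negative regulation (3 of 4) held Rubcn, nuclear receptor binding (10 of 24) held Nrbf2, and 1-phosphatidylinositol-3-kinase activity (3 of 9) held Pik3c3.

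**Figure D5:**
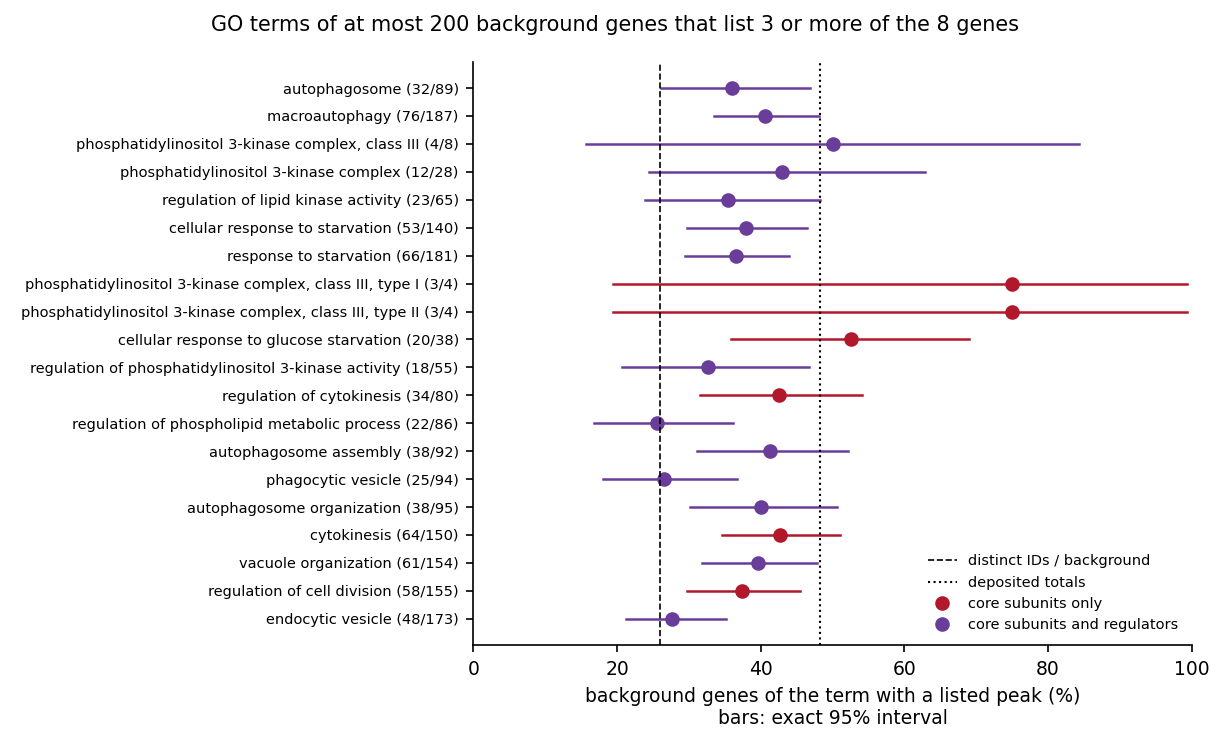
Percent of the background genes of each GO term that have a peak (horizontal axis), for the 20 terms with at most 200 background genes and 3 or more of the 8 genes, with the counts in brackets. Points are shares and bars exact 95% intervals, red for core subunits without a regulator and purple for both kinds. The dashed line is 26.0% (distinct identifiers) and the dotted line 48.3% (deposited totals). The points run from 25.6% to 75.0%. Holding 3 or more genes already listed was the condition of entry, which raises the shares.

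Of 290 KEGG pathways, 7 held a gene of the complex: Pik3c3 was in 6, Becn1 in 2 and Pik3r4 in 1, and no regulator was in any. Regulation of autophagy, the pathway with all 3 core subunits, had 11 input identifiers from 11 Entrez genes, against a background of 40, with p = 0.166 and a corrected p of 0.213 in the authors' deposited table. The other 6 had a corrected p below 0.05, as did 194 of the 290. The deposited inputs count identifiers, of which several can belong to 1 Entrez gene, while the p-values are those of the deposited counts. Phosphatidylinositol signaling had 34 input identifiers from 30 Entrez genes, against 97 background genes (corrected p = 0.00344 in the authors' deposited table) and inositol phosphate metabolism 26 identifiers from 25 Entrez genes, against 70 (corrected p = 0.00584 in the authors' deposited table). With Pik3c3, both held Pik3c2a, Pik3cd, Pikfyve and Mtmr4 of the pathway genes above.

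The remaining pathways held 1 gene of the complex each. Phagosome, with Pik3c3, had 64 input identifiers from 53 Entrez genes, against 192 background genes (corrected p = 0.000226 in the authors' deposited table). Tuberculosis, also with Pik3c3, had 60 identifiers from 48 Entrez genes, against 179 (corrected p = 0.000305 in the authors' deposited table). Becn1 was in apoptosis of multiple species with 24 input identifiers from 19 Entrez genes, against 32 (corrected p = 5.91e-06 in the authors' deposited table), beside its inhibitors Bcl2 and Bcl2l1. Pik3c3 was also in metabolic pathways, with 503 input identifiers from 428 Entrez genes.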

How the data were processed

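The authors deposited comparisons of GR with control, made from paired reads of 150 bp. BWA 0.7.12 and HOMER 4.9.1 with the mm10 build appear, without roles, in the submitters' processing notes; the program and thresholds for differential peaks are not given in the sources used here. Per the file headers, the autophagy table holds a log2 fold change per peak, deposited without a p or error; its normalisation is not given in the sources used here. The sign was read from the table's name. In 3 lines cells were split by spaces, so lines were split on white space. The p-values of the GO and KEGG tables are the authors' deposited ones, as are the counts of genes per term; 63 overflow lines of the GO table were joined.

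Genes were matched by Ensembl ID, and chromosomes and bounds came from RefSeq GRCm38.p6, the assembly that mm10 is built on. Alternatives changed the peak taken per gene, the gene part, the matching, the definition of the core and the GO and KEGG counting. Replicates were lacking, and no test was made. The members and lists were chosen with earlier results of these data known. Named were the 8 genes, every pathway gene with a line or a fold, the GO terms with most members (27 tied at 6, of which the 10 with the smallest background) and each KEGG pathway with a member. Intervals are from SciPy 1.17.1 and figures from Matplotlib 3.10.9, run in Python 3.11.15 with NumPy 2.4.6; parsing and intervals were tested on simulated data.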

Additional observations from a re-analysis of the deposited data

How the results depend on the processing

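No replicate could be left out, and no paired analysis was possible because each arm has 1 library of each kind. Counting Atg14 and Uvrag as core reversed the difference in the share listed between core subunits and regulators, to -40 percentage points in place of 40, by moving 2 unlisted genes. The number of GO terms with a gene of the complex was 244 with 10 to 500 background genes, against 613, and the GO background share was 26.0% by distinct identifiers, against 48.3%. The median fold of the 5 peaks was -1.95 on the log2 scale when each gene entered by its largest fold, and -1.67 when it entered by its mean; leaving out single peaks gave -1.80 to -1.48 for all, -1.99 to -1.63 for the core and -1.64 to -1.20 for Uvrag. These settings regroup the same few peaks and do not show stability. The share of the 5 peaks in a 3' UTR was 40% by their centre or end and 20% by their begin. Matching by deposited symbol left 6 of the 8 genes listed, and distinct Entrez genes kept each of the 7 KEGG inputs within 1.5 times.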
